A study of Mus musculus with 71 samples.

Results

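Genes that mark the neural crest were followed through an allelic series of the microRNA cluster miR-17~92 in mouse embryos. Sox10, Foxd3, Tfap2a, Tfap2b, Dlx2, Dlx5, Twist1, Ets1 and Ednrb were taken by gene symbol and Ensembl identifier, as 9 of the 37620 genes in the count table. In that order they lie on chromosomes 15, 4, 13, 1, 2, 6, 12, 9 and 14 of the GRCm38 annotation, Ednrb on the chromosome of the cluster itself. The RNA came from embryos of the C57BL/6 strain at day 9.5 of gestation (20 to 22 somites), each genotype being dissected into heart, tail bud and the remaining embryo. In the full knockout the miR-17~92 cluster is gone. In Δ17 the pair miR-17 and miR-20a is deleted, in Δ18 the single miR-18a, in Δ19 both miR-19a and miR-19b-1, and in Δ92 only miR-92a-1. Δ17,18 combines the first of these losses with that of miR-18a, Δ17,18,92 adds that of miR-92a-1, and wild type keeps the whole locus. Every group held 3 libraries, which the series text calls biological replicates, except the remaining embryo of Δ17,18,92 with 2, giving 71 libraries. No agent was given, and the sources used here do not say whether a library came from 1 embryo or a pool.

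The neural crest forms at the border of the neural plate, leaves the neural tube as migrating cells and gives rise to peripheral neurons and glia, pigment cells, much of the facial skeleton and part of the cardiac outflow tract. Tfap2a, Tfap2b and Foxd3 encode transcription factors that specify it, and Sox10 is kept in its glial and pigment lineages. Dlx2, Dlx5 and Twist1 act in the mesenchyme it forms in the pharyngeal arches, Ets1 acts in cranial crest and in endothelium, and Ednrb is an endothelin receptor needed by pigment and enteric nerve precursors. MicroRNAs bind messenger RNAs mainly through their seed, bases 2 to 8, and lower their level or translation. The alleles remove microRNAs of 4 seed families, whose mature sequences (RefSeq, GRCm38.p6) are shown here because the alleles are defined by them, with the seed in capitals.
mmu-miR-17-5p: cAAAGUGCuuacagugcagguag
mmu-miR-20a-5p: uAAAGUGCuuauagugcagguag
mmu-miR-18a-5p: uAAGGUGCaucuagugcagauag
mmu-miR-19a-3p: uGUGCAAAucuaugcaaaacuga
mmu-miR-19b-3p: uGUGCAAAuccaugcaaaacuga
mmu-miR-92a-3p: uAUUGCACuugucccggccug

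A match to these seeds was searched in 1 annotated 3′ untranslated region per crest gene. In the GENCODE M21 transcripts (GRCm38), Tfap2b alone held a match to bases 2 to 8 of any family, a single one for miR-18 at base 1728 of its 4229-base region, and no crest gene held that match followed by an A (an 8mer). The site on chromosome 1 is shown with the matched bases in capitals.
Tfap2b: acgaagtaaaaccgGCACCTTta
Over the 19819 genes with such a region, 12.5% held a match to miR-17 (GCACTTT), 8.72% to miR-18 (GCACCTT), 12.0% to miR-19 (TTTGCAC) and 7.03% to miR-92 (GTGCAAT), searched on the transcript strand. The 9 crest genes were not tested against these shares. These are matches of letters, and binding was not measured. Mir17hg, the host transcript of the cluster on chromosome 14, stood at 361.2, 353.5 and 360.7 CPM in full knockout tail buds, against 131.6, 142.3 and 110.7 CPM in wild-type tail buds. In hearts it ran from 137.3 to 145.3 CPM in full knockout and from 38.1 to 42.1 CPM in wild type, and in the remaining embryo from 426.3 to 463.2 CPM in full knockout and from 154.0 to 160.8 CPM in wild type. It does not count mature microRNAs, so it checks no label.

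Library totals ran from 13532012 to 27477273 counts. Marker genes were high in the tissues the labels name: 10 cardiomyocyte genes summed to between 34720 and 108000 CPM in the 24 heart libraries, to at most 47.8 CPM in tail buds and to at most 751.6 CPM in the remaining embryo, and 10 tail bud genes to at least 973 CPM in tail buds and at most 101.8 CPM elsewhere. Replicate 2 of the Δ17,18 hearts held the 108000 CPM, and the next heart library 46040 CPM. CPM, the share of a gene among 1000000 counts, was computed on library totals scaled by TMM over the libraries of 1 tissue, and where tissues are set against each other over the 9 wild-type libraries together; a gene was called where the Benjamini-Hochberg adjusted p of the edgeR quasi-likelihood test was under 0.05. In dissected tissue, fewer cells of a type and less RNA per cell cannot be told apart.

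In wild-type embryos the crest genes were mostly transcripts of the remaining embryo, which holds the head, pharyngeal arches and trunk. Set per kilobase of exon, Twist1 was the highest there at 57.7 ± 3.08 CPM per kb (SD, n = 3). Ets1 followed at 15.9 ± 0.55 CPM per kb, then Ednrb at 10.8 ± 0.21 and Sox10 at 10.1 ± 0.50 CPM per kb. Tfap2b stood at 8.13 ± 0.66, Tfap2a at 5.35 ± 0.18, Dlx2 at 5.20 ± 0.15, Dlx5 at 3.81 ± 0.44 and Foxd3 at 1.87 ± 0.37 CPM per kb. Tfap2a and Dlx2 were closer than their spread between replicates.

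Heart had little of most crest transcription factors and the most Ednrb, and which heart cells held Ednrb was not tested. Of the 9 genes, 8 were lower and 1 higher in wild-type heart than in the wild-type remaining embryo, where 68.1% of all 16922 genes tested were called, so a call by itself says little here. The sizes were large. Scaled over the 9 wild-type libraries, Sox10 stood at 0.16, 0.44 and 0.53 CPM in hearts, against 30.1, 28.2 and 27.4 CPM in the remaining embryo, a fitted 75.3-fold difference (log2 fold change −6.23 ± 0.43, edgeR adjusted p = 2.32e-07). Tfap2b was 68.7-fold and Dlx2 71.6-fold lower in heart, and Dlx5 51.7-fold and Foxd3 50.2-fold lower, although these genes had few heart counts and Foxd3 had none in 1 wild-type heart library. Tfap2a was 35.0-fold lower. Twist1 was 5.11-fold and Ets1 1.47-fold lower in heart. Ednrb went the other way, with 53.0, 61.2 and 80.5 CPM in hearts against 41.8, 43.7 and 43.0 CPM in the remaining embryo (log2 fold change 0.60 ± 0.12, edgeR adjusted p = 0.000643). On raw library totals, an alternative chosen after seeing the data, the median over all genes between heart and the remaining embryo moved by −0.27 on the log2 scale, and Ednrb stood at 0.33 (edgeR adjusted p = 0.0292).

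The tail bud, which lies behind the region of crest migration, separated the genes into a low and a moderate group. All 9 were lower in wild-type tail bud than in the wild-type remaining embryo, where 29.8% of all genes were called. Sox10 was 56.9-fold, Foxd3 19.9-fold, Tfap2b 10.4-fold and Ednrb 9.48-fold lower in tail bud. Tfap2a, Dlx2, Dlx5, Twist1 and Ets1 were between 1.33-fold and 1.83-fold lower, and the Dlx5 call ended without replicate 2 of the remaining embryo (edgeR adjusted p = 0.0541). The near-absent genes were uneven between libraries: tail bud Sox10 was 0.0857, 0.32 and 1.46 CPM in the 3 wild-type libraries and reached 2.43 CPM in replicate 1 of Δ17,18.

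Heart and tail bud were also set against each other in wild type, where 68.6% of all genes were called. Ednrb was 14.4-fold higher in heart (log2 fold change 3.84 ± 0.15, edgeR adjusted p = 1.08e-10). The 5 genes lower in heart were Dlx2 (39.0-fold), Dlx5 (31.1-fold), Tfap2a (21.9-fold), Tfap2b (6.64-fold) and Twist1 (3.84-fold). Ets1, with 81.3, 87.5 and 88.0 CPM in heart and 75.9, 84.3 and 80.9 CPM in tail bud, was not called (log2 fold change 0.09 ± 0.06, and −0.13 on raw library totals), nor were Sox10 and Foxd3.

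**Figure D1:**
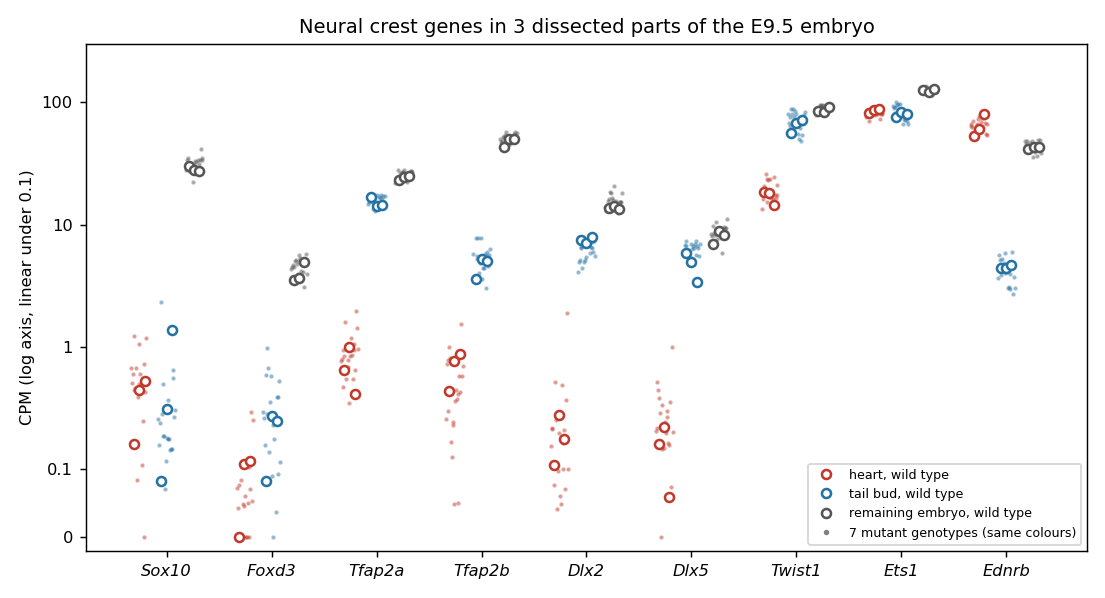
CPM (log axis, linear under 0.1) of the 9 crest genes in each of the 71 libraries, scaled together by TMM, by tissue; open circles are the 3 wild-type libraries and small dots the mutant libraries. Sox10, Foxd3 and Tfap2b were far higher in the remaining embryo, Ednrb was high in heart and the remaining embryo, and Ets1 varied least between tissues.

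Loss of the whole cluster gave 1 called crest gene over the 3 tissues. In the remaining embryo, 1 of 9 was called in the full knockout, against 6.66% of 17512 genes tested, and it rose: Tfap2b (ENSMUSG00000025927), with 61.9, 56.3 and 60.3 CPM in full knockout embryos against 46.7, 53.9 and 54.0 CPM in wild-type embryos (log2 fold change 0.21 ± 0.06, edgeR adjusted p = 0.0314). Every knockout library lay above every wild-type library. The edgeR adjusted p rose to 0.235 without wild-type replicate 1, to 0.134 without knockout replicate 1 and to 0.0941 without knockout replicate 3, so the call needs each of these libraries. Tfap2b is also the one crest gene with a seed match, for miR-18; in Δ18 it had 57.3, 56.8 and 50.8 CPM and was not called.

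Sox10 was the next in the remaining embryo, with 44.9, 36.4 and 38.0 CPM in full knockout embryos against 32.5, 30.3 and 29.5 CPM in wild-type embryos. The groups did not overlap, and the log2 fold change of 0.37 ± 0.11 missed the threshold (edgeR adjusted p = 0.0517). It passed with DESeq2 (adjusted p = 0.00937), when the 6 libraries compared were fitted alone with edgeR (adjusted p = 0.0029), with no filter on low counts (adjusted p = 1.23e-05) and without replicate 2 of the knockout (adjusted p = 0.0449). It also passed without replicate 1 or 2 of Δ17, 1 or 2 of Δ18, 3 of Δ19, or 1 or 2 of Δ17,18 (edgeR adjusted p 0.00708 to 0.049). These libraries are in neither compared group and enter the fit through the filter, the scaling and the shared spread.

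Tfap2a, Dlx2 and Dlx5 also had no overlap between the groups in the remaining embryo. Tfap2a stood at 29.4, 29.5 and 29.0 CPM in knockout embryos and at 25.2, 26.5 and 26.9 CPM in wild-type embryos. Dlx2 stood at 16.5, 16.7 and 19.5 CPM in knockout embryos and at 14.7, 15.3 and 14.5 CPM in wild-type embryos. Dlx5 stood at 10.1, 10.2 and 12.0 CPM in knockout embryos and at 7.53, 9.49 and 8.84 CPM in wild-type embryos. Their log2 fold changes were 0.16 ± 0.07, 0.24 ± 0.12 and 0.31 ± 0.12, none called. In all, 5 of 9 crest genes had every full knockout library above every wild-type library, against 12.4% of the genes tested, and 0 of 9 had the reverse, against 10.9%. Foxd3 (0.28 ± 0.18), Twist1 (0.10 ± 0.05), Ets1 (0.00 ± 0.04) and Ednrb (0.01 ± 0.10) overlapped between the groups. The median of the 9 log2 fold changes was 0.21, beside −0.003 over all genes. Some of these genes varied together over the 23 libraries there, such as Tfap2a with Dlx5 (Pearson r = 0.62), so they are not separate observations.

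Markers of other cell types in the same embryos were compared as summed CPM. The 9 neural tube and neuron genes in the table summed to 306.0, 326.3 and 349.1 CPM over the knockout libraries in rising order, against 279.5, 305.7 and 336.5 CPM in wild type, and the 11 surface ectoderm and placode genes to 441.2 to 457.3 CPM in knockout against 428.2 to 475.2 CPM in wild type. Neither list had a called gene or a gene at 0 in every library. The 6 yolk sac and visceral endoderm genes summed to 42.8 to 60.6 CPM in knockout and to 55.1 to 437.2 CPM in wild type. Of the endothelial, somite and tail bud lists, Pecam1, Pdgfra and Nkx1-2 were called higher (log2 fold changes 0.29, 0.17 and 0.52). Meox2 of the somite list was called lower (−0.33), where 6.66% of all genes were called. The part of these markers in the crest gene values was not tested.

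**Figure D2:**
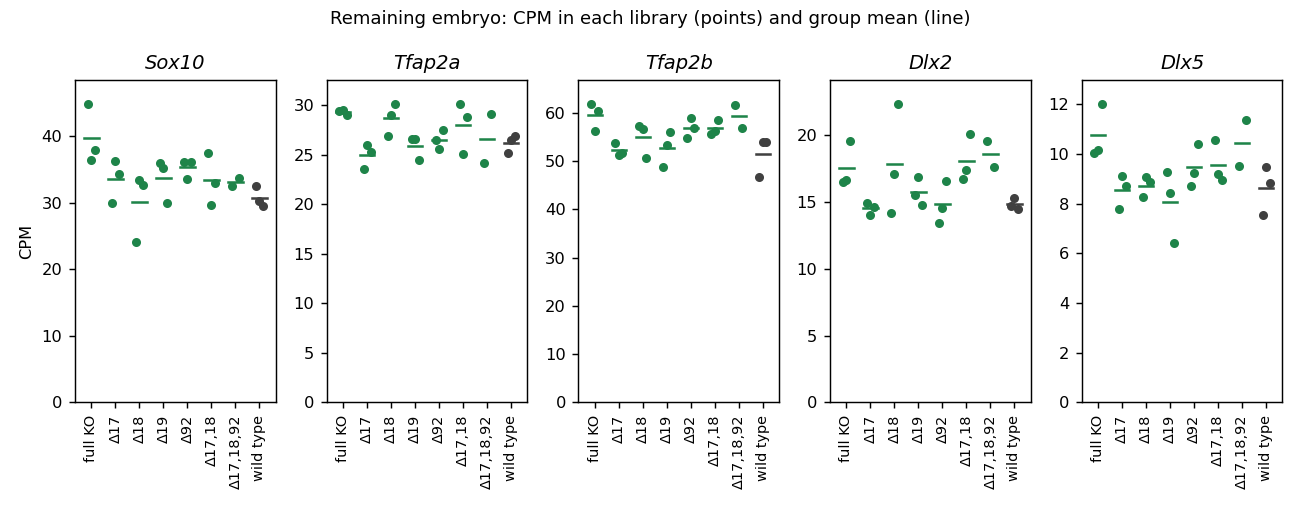
CPM in the remaining embryo for 5 crest genes in each library (points) with group means (lines), the mutants left of wild type. The full knockout libraries lie above the 3 wild-type libraries in all 5 panels, and replicate 1 of the knockout is the highest of all libraries for Sox10.

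In the full knockout tail bud, 0 of 9 crest genes were called by edgeR, against 10.4% of 17009 genes tested. An unadjusted edgeR p under 0.05 was held by 2 of 9, against 26.6% of all genes, and DESeq2 called 1. Ednrb (ENSMUSG00000022122) had the largest difference among the 7 genes other than the near-absent Sox10 and Foxd3, with 2.80, 3.87 and 3.14 CPM in knockout tail buds against 4.59, 4.62 and 4.96 CPM in wild-type tail buds. The groups did not overlap (log2 fold change −0.52 ± 0.17, edgeR adjusted p = 0.0523). The adjusted p was 0.0454 with DESeq2 and 0.0411 with edgeR without replicate 2 of the knockout, and between 0.0439 and 0.0478 without replicate 1 or 2 of Δ17, 1 or 3 of Δ92, or 2 of Δ17,18. Ednrb was the 1 of 9 with every knockout library below every wild-type library, against 12.8% of the genes tested, and 0 of 9 had every knockout library above, against 13.5%.

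The other tail bud values were smaller or noisier. Dlx5 had 6.66, 5.77 and 7.15 CPM in knockout tail buds against 6.13, 5.14 and 3.57 CPM in wild-type tail buds (log2 fold change 0.37 ± 0.15, edgeR adjusted p = 0.115), with wild-type replicate 3 the lowest of all 24 tail bud libraries. Without wild-type replicate 1 the edgeR adjusted p was 0.0258. Dlx2 stood at −0.26 ± 0.16, Twist1 at 0.21 ± 0.13, Tfap2b at 0.26 ± 0.31, Tfap2a at 0.09 ± 0.10 and Ets1 at −0.07 ± 0.09 on the log2 scale. Sox10 (−0.38 ± 0.91) and Foxd3 (0.35 ± 0.91) had errors larger than their differences. Of other cell type markers, 10 somite and mesenchyme genes summed to 532.3 to 622.5 CPM in knockout tail buds against 463.8 to 510.7 CPM in wild type, and 7 primitive erythroid genes to 799.8 to 3530 CPM in knockout against 3754 to 5616 CPM in wild type, with none at 0 in every library. Markers of other cell types called higher in knockout tail buds were Tubb3 (log2 fold change 0.51), Pdgfra (0.40), Cdh1 (0.21), Dll1 (0.31) and Tbx6 (0.26). Cldn5 was called lower (−0.44), where 10.4% of all genes were called. The part of these markers in the crest gene values was not tested.

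In the heart, 0 of the 6 crest genes tested were called by edgeR in the full knockout, against 3.91% of 16750 genes. An unadjusted edgeR p under 0.05 was held by 1 of 6, against 17.4% of all genes, and DESeq2 called none. Foxd3, Dlx2 and Dlx5 had too few heart counts to be tested. Over the 24 heart libraries Sox10, Foxd3, Tfap2a, Tfap2b, Dlx2 and Dlx5 each had a median of 0.77 CPM or less. Medians there were 58.4 CPM for Ednrb, 74.4 CPM for Ets1 and 16.0 CPM for Twist1. Which heart cells held Ednrb was not tested, so its heart values are not read as a level of crest cells. Ednrb, the crest gene with its highest level in heart, had 49.8, 48.1 and 59.2 CPM in knockout hearts against 46.9, 54.6 and 72.4 CPM in wild-type hearts, overlapping (log2 fold change −0.14 ± 0.15). Ets1 (−0.07 ± 0.07) and Twist1 (0.11 ± 0.20) likewise overlapped. Tfap2a had 1.80, 1.28 and 0.86 CPM in knockout hearts against 0.57, 0.89 and 0.37 CPM in wild-type hearts (log2 fold change 1.06 ± 0.39, edgeR adjusted p = 0.14), the largest difference of the 6. Sox10 had 1.07, 0.47 and 0.45 CPM in knockout hearts against 0.14, 0.40 and 0.48 CPM in wild-type hearts (0.92 ± 0.67), and Tfap2b stood at 0.40 ± 0.48, both overlapping between the groups. Replicate 2 of the knockout hearts held 1.71 CPM of Dlx2 and 0.90 CPM of Dlx5, the highest of the 24 heart libraries, and the same library had the highest summed level of the 14 pharyngeal arch genes, 213.6 CPM. The part of adjoining arch tissue in these values was not tested. Among markers of other cell types, Pecam1 of the endothelial list was called higher in knockout heart (log2 fold change 0.23), where 3.91% of all genes were called.

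**Figure D3:**
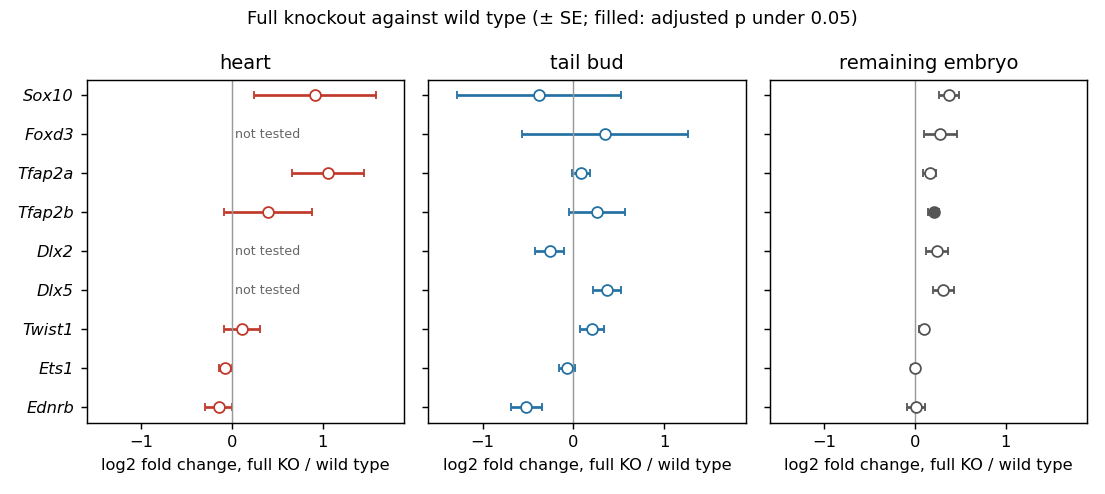
Log2 fold change of each crest gene in the full knockout over wild type (points, bars ± SE) in 3 tissues; filled points have an adjusted p under 0.05. Tfap2b in the remaining embryo (0.21) is the filled point, and Ednrb in tail bud stands at −0.52.

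The full knockout's effect was compared between tissues by an interaction term over 18 libraries. For tail bud against the remaining embryo 0 of 9 crest genes were called, against 0% of 17548 genes. For heart against the remaining embryo 0 of 9 were called, against 0.0228%. For tail bud 1 of 9 had an unadjusted edgeR p under 0.05, against 6.1% of genes, and for heart 2 of 9, against 6.52%. DESeq2 called none of the 9 in either. The effect on Ednrb in tail bud minus that in the remaining embryo was −0.53 ± 0.23 on the log2 scale (edgeR adjusted p = 0.776).

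The 6 partial alleles each lack some of the microRNAs, and Dlx2 was the crest gene that changed in one of them. In tail bud, 1 of 54 values was called, against shares over all genes of 1.77% in Δ17, 0.129% in Δ18, 1.03% in Δ19, 0.359% in Δ92, 8.31% in Δ17,18 and 5.57% in Δ17,18,92. It was Dlx2 (ENSMUSG00000023391) in Δ17, with 4.28, 5.21 and 5.30 CPM in Δ17 tail buds against 7.80, 7.41 and 8.40 CPM in wild-type tail buds (log2 fold change −0.67 ± 0.17, edgeR adjusted p = 0.0298). The groups did not overlap, yet the call ended without wild-type replicate 3 (edgeR adjusted p = 0.106) and without Δ17 replicate 1 (0.191), 2 (0.0664) or 3 (0.0684). The other alleles without miR-17 and miR-20a also had less Dlx2: Δ17,18 had 6.67, 6.83 and 4.63 CPM and Δ17,18,92 had 7.39, 5.12 and 5.32 CPM, each below all wild-type libraries, while the full knockout with 6.22, 7.63 and 5.76 CPM overlapped wild type. These comparisons share the wild-type libraries.

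Δ19 tail buds, set against the same wild-type libraries as the full knockout, gave no called crest gene. They held 3.15, 3.24 and 3.09 CPM of Ednrb against 4.59, 4.62 and 4.96 CPM in wild type (log2 fold change −0.58 ± 0.17, edgeR adjusted p = 0.1), with no overlap. Ets1 stood at 68.8, 76.1 and 75.2 CPM in Δ19 tail buds against 78.9, 87.6 and 84.9 CPM in wild type (−0.19 ± 0.09), also without overlap. In all, 2 of 9 crest genes in Δ19 had every library below wild type, against 9.1% of genes tested, and 1 of 9, Dlx5, had every library above, against 7.82%. Dlx5 in Δ19 stood at 0.47 ± 0.15 and was called without wild-type replicate 1 (edgeR adjusted p = 0.0354), as it was in Δ17,18 (0.0203). Ets1 took the other direction in Δ17,18, with 95.2, 104.3 and 99.9 CPM (0.25 ± 0.09, edgeR adjusted p = 0.0716; 0.0452 with DESeq2, and with edgeR 0.0483 without full knockout replicate 1 and 0.042 without Δ18 replicate 1). Δ17,18 tail buds had 4 of 9 crest genes above every wild-type library (Foxd3, Tfap2b, Twist1 and Ets1), against 12.6%, and 1, Dlx2, below, against 11.9%.

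A model with 1 additive term per seed family used all 24 tail bud libraries for each family, comparing libraries that lack it with those that keep it. Of 36 terms for the crest genes 3 were called, all negative, against shares over all genes of 5.44% for miR-17, 0.323% for miR-18, 5.33% for miR-19 and 3.66% for miR-92. Ednrb fell with loss of miR-19: the 6 libraries without miR-19a and miR-19b-1 ran from 2.80 CPM through a median of 3.14 to 3.87 CPM, and the other 18 from 3.78 through a median of 4.78 to 6.22 CPM. The 2 sets overlapped by 1 library on each side (term −0.61 ± 0.10, edgeR adjusted p = 0.000201). Ets1 (ENSMUSG00000032035) also fell with loss of miR-19, with 68.8 to 86.4 CPM and a median of 75.6 CPM without miR-19, against 74.3 to 104.3 CPM and a median of 88.9 CPM with it (−0.21 ± 0.05, edgeR adjusted p = 0.00924). Both terms rest on the full knockout and Δ19 together, and neither passed when the full knockout was left out (Ednrb −0.52, edgeR adjusted p = 0.0837; Ets1 −0.19, 0.2). Both stayed called in each of the 24 fits without 1 library. Neither gene's 3′ untranslated region held a match to the miR-19 seed.

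Dlx2 fell with loss of miR-17 and miR-20a: the 12 libraries without them ran from 4.28 to 7.63 CPM with a median of 5.54 CPM, against 5.65 to 8.40 CPM and a median of 7.50 CPM in the 12 with them (−0.39 ± 0.10, edgeR adjusted p = 0.0163). Without replicate 1 of Δ17 the edgeR adjusted p was 0.1. The sets overlapped over much of their range. The miR-17 term of Ets1 was not called (0.14 ± 0.05, edgeR adjusted p = 0.0943) but passed without full knockout replicate 1, Δ18 replicate 1 or Δ92 replicate 2 (edgeR adjusted p 0.0193 to 0.0453).

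The miR-19 term in tail bud was also called for genes of the crest, arch, endothelin and vessel lists, chosen for naming after their values were seen. Sox2 of the neural list (0.23) and Rspo3 (0.25) and Fgf8 (0.46) of the tail bud list were called as well. Sox10 and Foxd3 were near-absent in tail bud, and which cells held Ednrb, Ets1 and the list genes was not tested. The share called over all genes for the miR-19 term is the 5.33% given above. Of 9 endothelin pathway genes tested, Ednra, the partner receptor of Ednrb, fell by 0.23 on the log2 scale (edgeR adjusted p = 0.0327) and the G protein gene Gna11 rose by 0.12 (0.0132). Of 13 migrating crest genes, Ret and Ngfr, receptors of crest and its nerve derivatives, fell by 0.36 (edgeR adjusted p = 0.000264) and 0.34 (4.25e-05), while Kit rose by 0.15 (0.0131). In the same model Ngfr rose with loss of miR-92 (0.31, edgeR adjusted p = 3.27e-05) and of miR-17 (0.17, 0.0342). Of 16 border and specifier genes, Msx1 rose (0.46, edgeR adjusted p = 0.019), and of 11 arch genes, Barx1 (1.31, edgeR adjusted p = 7.76e-06) and Dlx3 (0.32, 0.000712) rose. Of 11 endothelial genes tested, 1 was called lower (Fli1, −0.20, edgeR adjusted p = 0.0181) and none higher, with a median of −0.11 beside −0.01 over all genes. The endothelial genes summed to 463.6 to 570.3 CPM in full knockout tail buds, to 469.8 to 522.6 CPM in Δ19 and to 525.5 to 557.7 CPM in wild type, with none at 0. Their part in the Ednrb and Ets1 values was not tested. For the miR-17 term, called for 5.44% of all genes, Barx1, another arch homeobox gene, fell with Dlx2 (−0.83, edgeR adjusted p = 0.0116), and Lhx6, also of the arches, rose (0.43, 0.0429); the other 9 of 11 arch genes tested were not called. The miR-92 term was called for 3.66% of all genes. Beside Ngfr, its called list genes all rose: Nrp1 (0.21), Nrp2 (0.21), Ece1 (0.20), Hand2 (0.16), Alx4 (0.32), Tek (0.24) and Cdh1 (0.09).

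**Figure D4:**
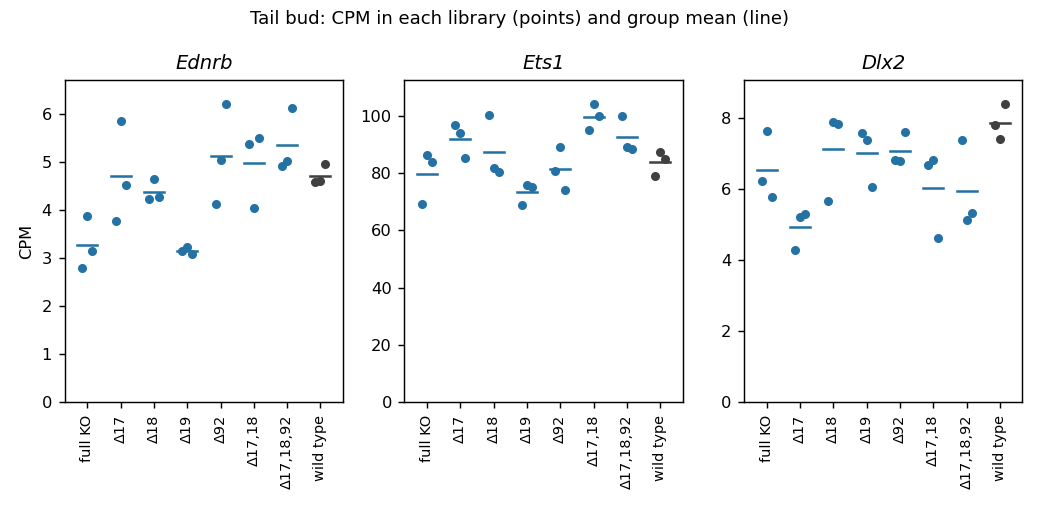
CPM in tail bud for Ednrb, Ets1 and Dlx2 in each library (points) with group means (lines), the mutants left of wild type. Ednrb is lowest in the full knockout and Δ19 (2.80 to 3.87 CPM) and Dlx2 in Δ17 (4.28 to 5.30 CPM).

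In heart and in the remaining embryo the partial alleles gave no called crest gene by edgeR. In heart 0 of 36 values were called, against 0.555% of genes in Δ17, 0.0418% in Δ18, 0.406% in Δ19, 0.0716% in Δ92, 1.12% in Δ17,18 and 1.89% in Δ17,18,92. An unadjusted edgeR p under 0.05 was held by 3 of the 36, against 4.08% of all genes in Δ18 to 13.3% in Δ17,18,92. The largest heart difference was Tfap2b in Δ17,18,92, with 0.15, 0.11 and 0.22 CPM against 0.38, 0.69 and 0.80 CPM in wild type, from 3 to 5 counts per library in the mutant and 8 to 15 in wild type (log2 fold change −1.95 ± 0.59, edgeR adjusted p = 0.0908, and 0.0201 with no filter on low counts). With no filter Twist1 in Δ17,18,92 hearts (0.32 ± 0.20; edgeR adjusted p = 0.0457 with no filter, 0.521 with it) and Ednrb in Δ19 hearts (0.22 ± 0.15; 0.049 and 0.623) passed as well. The 4 family terms gave 0 of 24 in heart, against 3.61% for miR-17, 0.0896% for miR-18, 4.37% for miR-19 and 1.58% for miR-92. An unadjusted edgeR p under 0.05 was held by 2 of the 24, against 8.14% of all genes for miR-18 to 17.6% for miR-19. DESeq2 called none of these heart values.

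In the remaining embryo 0 of 54 values were called by edgeR and none by DESeq2. The edgeR shares over all genes were 1.56% in Δ17, 0.36% in Δ18, 1.88% in Δ19, 0.588% in Δ92, 4.44% in Δ17,18 and 5.62% in Δ17,18,92. An unadjusted edgeR p under 0.05 was held by 7 of the 54, against 8.28% of all genes in Δ92 to 18.3% in Δ17,18,92. Δ17,18,92, whose 2 libraries make any such separation easier, had 5 of 9 crest genes above every wild-type library, against 17.6% of genes tested. These were Sox10, Tfap2b, Dlx2, Dlx5 and Twist1. Dlx2 had 19.6 and 17.6 CPM and Tfap2b 61.7 and 57.0 CPM in Δ17,18,92 (log2 fold changes 0.32 ± 0.13 and 0.20 ± 0.07). Both were called with no filter on low counts (edgeR adjusted p = 0.0183 for Dlx2 and 0.0241 for Tfap2b) and without Δ18 replicate 3 (0.0453 and 0.0478), and Tfap2b also without Δ19 replicate 1 (0.0416) or 3 (0.0498). Of 36 family terms 1 was called, Dlx2 with loss of miR-18 (0.27 ± 0.06, edgeR adjusted p = 0.0381), against 7.49% of genes for miR-17, 0.748% for miR-18, 6.59% for miR-19 and 5.18% for miR-92. Libraries without miR-18a held 14.2 to 22.4 CPM of Dlx2 with a median of 17.4 CPM, against 13.4 to 16.9 CPM and a median of 14.7 CPM with it. The term was called in 8 of the 23 fits without 1 library, and stood at 0.19 (edgeR adjusted p = 0.224) without Δ18 replicate 3, which held the 22.4 CPM. It also ended without any 1 of the wild-type or Δ17 libraries, replicate 2 of Δ18, 1 or 2 of Δ92, 2 or 3 of Δ17,18, 3 of Δ19, 3 of the full knockout or 1 of Δ17,18,92 (edgeR adjusted p 0.0502 to 0.133). Tfap2b with loss of miR-92 just missed (0.10 ± 0.03, edgeR adjusted p = 0.0607). It passed with DESeq2 (adjusted p = 0.0318), with no filter on low counts (edgeR 0.0384) and without full knockout replicate 2, Δ18 replicate 1, Δ19 replicate 3, Δ17,18 replicate 3 or Δ17,18,92 replicate 2 (edgeR adjusted p 0.0288 to 0.0451). Ednrb with loss of miR-17 (0.11 ± 0.05) passed without Δ18 replicate 1 (edgeR adjusted p = 0.0397), and Tfap2a with loss of miR-18 (0.15 ± 0.04) without Δ17,18,92 replicate 1 (0.0498). The called Dlx2 terms were negative in tail bud (miR-17) and positive here (miR-18), and their difference was not tested.

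**Figure D5:**
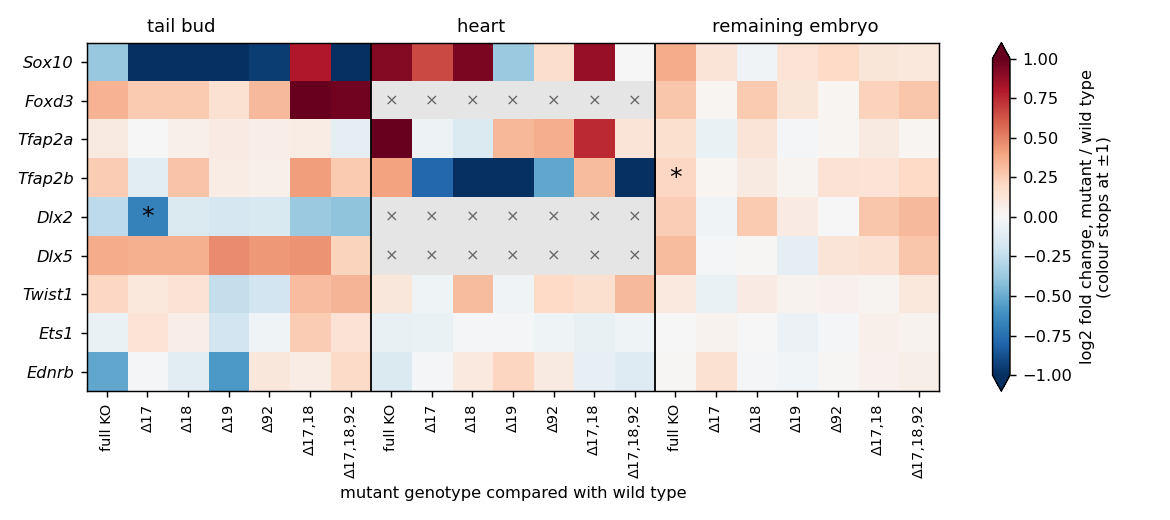
Log2 fold changes of the 9 crest genes in each mutant over wild type, by tissue (colour, stopping at ±1); asterisks mark adjusted p under 0.05 and crosses genes not tested. The 2 asterisks are Dlx2 in Δ17 tail bud (−0.67) and Tfap2b in the full knockout remaining embryo (0.21); the deep colours of Sox10 and Foxd3 in tail bud and of Sox10, Tfap2a and Tfap2b in heart come from genes of few counts.

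Other genes of the crest and of endothelin signalling were read from lists of general knowledge. Over all genes, 10.4% were called in full knockout tail bud, 6.66% in the remaining embryo and 3.91% in heart, and the lists' counts are to be read against these shares. Of 16 further border and crest specifier genes tested in the full knockout, 2 rose and none fell in tail bud: Pax3, a paired-box factor of the border and dorsal neural tube (0.74 ± 0.14, edgeR adjusted p = 0.00144), and Msx2 (0.29 ± 0.09, 0.0399). Which tail bud cells held Pax3 was not tested. The somite and mesenchyme genes summed higher in the same libraries (532.3 to 622.5 CPM in knockout against 463.8 to 510.7 CPM in wild type). In the remaining embryo 1 of 16 rose, the homeobox gene Msx1 (0.34 ± 0.07, edgeR adjusted p = 0.00195), and in heart 0 of 14 were called. The list medians were 0.08, 0.07 and 0.13, beside medians over all genes between −0.01 and 0.00.

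Of the genes of migrating crest and its glial, pigment and neuronal descendants, 2 of 13 tested rose in full knockout tail bud, against the 10.4% of all genes, Kit, the receptor of pigment precursors (0.45 ± 0.06, edgeR adjusted p = 3.33e-05), and Nrp2, a semaphorin receptor (0.23 ± 0.06, 0.0215). Kit also rose in the remaining embryo (0.33 ± 0.07, edgeR adjusted p = 0.00503), as 1 of 16 against 6.66%, and 0 of 12 were called in heart. Kit marks germ and blood precursors too. No gene of the pharyngeal arch list was called in the full knockout, out of 11 tested in tail bud, 11 in the remaining embryo and 7 in heart.

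Of the endothelin signalling genes 2 of 9 tested were called in tail bud against 10.4% of all genes, 2 of 9 in the remaining embryo against 6.66%, and 0 of 9 in heart against 3.91%. Ece1, the endothelin-converting enzyme, rose by 0.34 ± 0.06 in full knockout tail bud (edgeR adjusted p = 0.000674) and by 0.40 ± 0.05 in the remaining embryo (2.35e-07). Edn1, the ligand of arch patterning, rose in the remaining embryo (0.50 ± 0.15, edgeR adjusted p = 0.0317), and Mef2c, a transcription factor downstream of that signal in the arches and also a gene of heart and vessels, fell in tail bud (−0.39 ± 0.12, 0.0388).

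The crest genes varied together only in part. After each tissue's mean was removed, the closest pair over the 71 libraries was Tfap2a and Tfap2b (Pearson r = 0.50). That pair stood at r = 0.60 in heart, where both genes had few counts, at −0.27 in tail bud and at 0.21 in the remaining embryo. Within tail bud the closest pair was Twist1 and Ets1 (r = 0.75, n = 24). Within the remaining embryo it was Dlx2 and Twist1 (r = 0.63, n = 23), followed by Tfap2a and Dlx5 (0.62) and Foxd3 and Tfap2a (0.58). Ednrb went against several genes there, most against Tfap2a (r = −0.34). Over all genes, the pattern of Tfap2b was most like that of a gene with no symbol here (ENSMUSG00000086878, r = 0.75) and of Sox2, a factor of neural progenitors (r = 0.73). Twist1 was most like Pcolce, a collagen-processing enhancer (r = 0.72), and Ets1 like Lsp1 (r = 0.73). Ednrb was most like Mab21l2 (r = 0.62), Foxd3 like Foxp1 (r = 0.59), Dlx5 like Daam2 (r = 0.56), Tfap2a like B4galnt4 (r = 0.56), Sox10 like Erbb4 (r = 0.53) and Dlx2 like Sh2b2 (r = 0.51). Each r was taken over log2 CPM of the 71 libraries, which share depth, dissection and genotype between genes, and is given as a description. Sox10 and Foxd3 had few counts in heart and tail bud, and Tfap2a, Tfap2b, Dlx2 and Dlx5 had few in heart. Scatter of these low counts enters their r values.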

How the data were processed

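RNA from 3 tissues of 8 genotypes was sequenced as single reads of 50 bases, per the labels' protocols. The authors deposited raw integer counts of reads for 37620 Ensembl gene IDs; the submitters' processing notes name the tools STAR 2.3.0, Subread 1.4.2 with featureCounts, and SAMtools 0.1.14, and the builds mm9 and NCBIM37. No source used here gives the annotation release or strand setting, so reads of antisense genes overlapping Tfap2a and Ets1 could not be told apart. Symbols came from GENCODE M21 (32897 IDs matched; the list genes Lhx8 and Sox1 had no match and are not analysed here), 3′ untranslated regions from its longest annotated region per gene. Groups and replicate numbers came from sample titles. The 70 replicate pairs all differed beyond counting noise (chi-square per degree of freedom at least 2.52), so each library counted once.

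For each tissue all libraries were fitted with edgeR 4.0.16 in R 4.3.3 (filterByExpr by genotype, TMM, robust quasi-likelihood test, Benjamini-Hochberg over all genes tested, threshold 0.05), as 1 mean per genotype or as 4 additive seed-family terms; tissues were compared in 9 wild-type libraries, and interactions in 18. Only the genotype fit of tail bud was run on simulated data, with the same spread for all genes and changes in the full knockout alone. The family, tissue and interaction fits were not simulated. SE is the absolute log2 fold change divided by the root of F, and biological variation was 8.74%, 8.87% and 6.47% for tail bud, heart and remaining embryo in turn. Alternatives were DESeq2 1.42.0, raw totals (for the tissue fit chosen after seeing the data), no filter, a replicate block, fewer groups, and leaving out each library. The crest genes, the lists and the tests were chosen with earlier results of these data known. All 9 crest genes were named. For the full knockout, list genes were named up to 3 per list and tissue by smallest p. For the miR-19, miR-17 and miR-92 terms in tail bud, list genes were named after their values were seen. The 3 genes with the most similar pattern were found for each member among genes with mean log2 CPM of at least 2 (prior count 2).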

Additional observations from a re-analysis of the deposited data

How the results depend on the processing

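Of the called values, Ednrb and Ets1 with loss of miR-19 in tail bud kept their call in every fit without 1 library, and the wild-type tissue calls kept theirs under all alternatives except Dlx5 between tail bud and the remaining embryo. Called crest genes in the full knockout tail bud went from 0 to 1 with the replicate block and with DESeq2, and ranged from 0 to 1 over fits without 1 library; those of the partial alleles went from 1 to 3 with DESeq2, with a range of 0 to 3; and the 3 family terms became 1 without the full knockout. In heart, no filter on low counts gave 1 in the full knockout (Dlx2) and 3 in the partial alleles. That Dlx2 value rested largely on 1 library, with 1.71 CPM beside a group mean of 0.71 CPM (SD 0.87). In the remaining embryo the full knockout had 2 in place of 1 with no filter, with its 6 libraries alone and with DESeq2 (range 0 to 2), the partial alleles 2 with no filter and 1 with the block (range 0 to 2), and the family terms 2 with no filter and with DESeq2 (range 0 to 3). The causes were not tested. The shares of all genes called in these alternative fits are not given here, so the added calls cannot be set against them. Of 258 uncalled values, 107 changed sign in at least 1 alternative and 15 were called in at least 1. Replicate numbers did not pair knockout with wild-type libraries (correlation of same-numbered deviations −0.154 to 0.143), although between tissues of a genotype 123 of 132 comparisons had the own number as the best match; the block called Ednrb in the full knockout tail bud (edgeR adjusted p = 0.0425) and Dlx2 in the remaining embryo of Δ17,18,92 (0.041). With the block within each genotype, the comparison of the knockout's effect between tissues also called 0 of 9 genes for both tissue pairs (Ednrb in tail bud minus the remaining embryo −0.54, edgeR adjusted p = 0.637). Depth limits the low genes: in heart libraries Foxd3 had 0 to 5 counts, Dlx5 0 to 19, Tfap2b 1 to 21, Sox10 0 to 23, Tfap2a 7 to 28 and Dlx2 1 to 36, and in tail buds Foxd3 had 0 to 21 and Sox10 2 to 47.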
